A study of Mus musculus with 6 samples.

Results

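The collagen chain genes are the protein-coding genes whose mouse symbol reads Col, a number, a and a number. Of 55401 gene identifiers in the deposited tables, 44 met that rule on the annotation of the build GRCm38. RNA sequencing of poly(A) RNA measured them in the myocardium of male wild-type (WT) mice, with 3 libraries from mice injected with STZ and 3 from mice injected with PBS. STZ (streptozotocin) is a toxin of pancreatic beta cells that makes mice diabetic, and the study's title names the fibroblasts of the diabetic heart as its subject. All 6 libraries share sex, genotype and an 8-week time, for which no starting event is stated, and neither strain nor age is given. Whether each library is a different mouse is not stated either, so p-values reflect the spread among these libraries alone, and that spread may be technical.

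A collagen molecule is a triple helix of 3 chains. The chains are made by fibroblasts, vascular mural cells and endothelial cells rather than mainly by the muscle cells of the heart, and they are hydroxylated, folded and trimmed before they assemble outside the cell. Fibrillar collagens (types I, III and V) form the tension-bearing fibrils between muscle cells, and network collagens of type IV form the sheet of the basement membrane around each muscle cell and capillary. Beaded collagen VI links cells to the fibrils, FACIT collagens sit on fibril surfaces, and multiplexins (types XV and XVIII) join basement membranes to the surrounding matrix. In the diabetic heart, collagen deposition is usually studied as fibrosis.

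Levels are in FPKM, that is, sequenced fragments divided by transcript length and by the library's mapped total, so they can be compared between genes. The number of fragments is not given in the sources used here. The step between the lowest values of single-exon genes put it very roughly at 18300000 to 22500000 fragments per complete library, which would place 59 to 7203 fragments behind each value of a tested collagen chain. The file of PBS replicate 3 lists 7711 of the 55401 genes and 23 of the 44 collagen chains, so STZ replicates 1 to 3 were compared with PBS replicates 1 and 2 across all genes, and PBS replicate 3 is given where it lists a gene. The cardiac muscle genes Myh6 and Tnnt2 averaged 2336 and 920 FPKM in STZ hearts and 3004 and 713 FPKM in PBS hearts, and the skeletal muscle genes Myh4 and Myh1 stood at 0 to 0.01 FPKM. The atrial markers Myl7, Myl4 and Sln summed to 0.49 to 439 FPKM in STZ libraries and, in PBS replicates 1 and 2, to 332 and 50.4 FPKM. Of these, Myl7 had 357, 73.7 and 0.28 FPKM in STZ replicates 1 to 3. In PBS replicates 1 to 3 it had 262, 37.9 and 0.21 FPKM. Each group thus held 1 library near 0, and same-numbered libraries had similar levels. The PBS library near 0 is replicate 3, which is not in the comparison across all genes. In that comparison only the STZ side holds a library near 0. The part of these atrial levels in the results was not tested.

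Among the collagen chains abundant enough to test, expression was lower in STZ hearts. Of the 44 chains, 16 were at or above 1 FPKM in 2 or more of the 5 libraries compared and so were tested, and 9 of these fell at a limma adjusted p under 0.05: Col3a1, Col15a1, Col1a1, Col6a3, Col6a2, Col4a2, Col1a2, Col5a3 and Col4a1. None of the 16 rose, and none was higher at an unadjusted limma p under 0.05, while 14 were lower at that level. Over all 11556 genes tested, 10.2% were lower and 16.4% higher at an unadjusted p under 0.05. At the adjusted threshold 5.82% of all genes passed: 2.17% of the genes fell (251 genes) and 3.64% rose (421 genes). The split between rises and falls over all genes depended on scaling, with 325 rises and 345 falls after centring each library on its median, while the same 9 collagen chains fell.

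Col6a3 entered the test through its PBS values alone. Among the 15 chains that reached 1 FPKM in both groups, 8 fell, and their median log2 fold change was -0.92, against 0.06 over all genes tested. For 15 of the 16 tested chains every STZ library lay below both PBS libraries, a pattern held by 18.8% of all tested genes (28.7% had every STZ library above both PBS libraries), and Col4a5 was the exception. All 16 had a negative log2 fold change, as did 43% of all tested genes, but that of Col4a5 turned positive after rescaling to TPM, without PBS replicate 1 and without replicate 1 of both groups. The number of chains that fell was lowest when a PBS library was left out, and the reason was not tested. It was 1 (Col3a1) without PBS replicate 1 and 2 (Col1a1 and Col3a1) without PBS replicate 2, against 7, 5 and 7 without STZ replicates 1, 2 and 3.

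**Figure D1:**
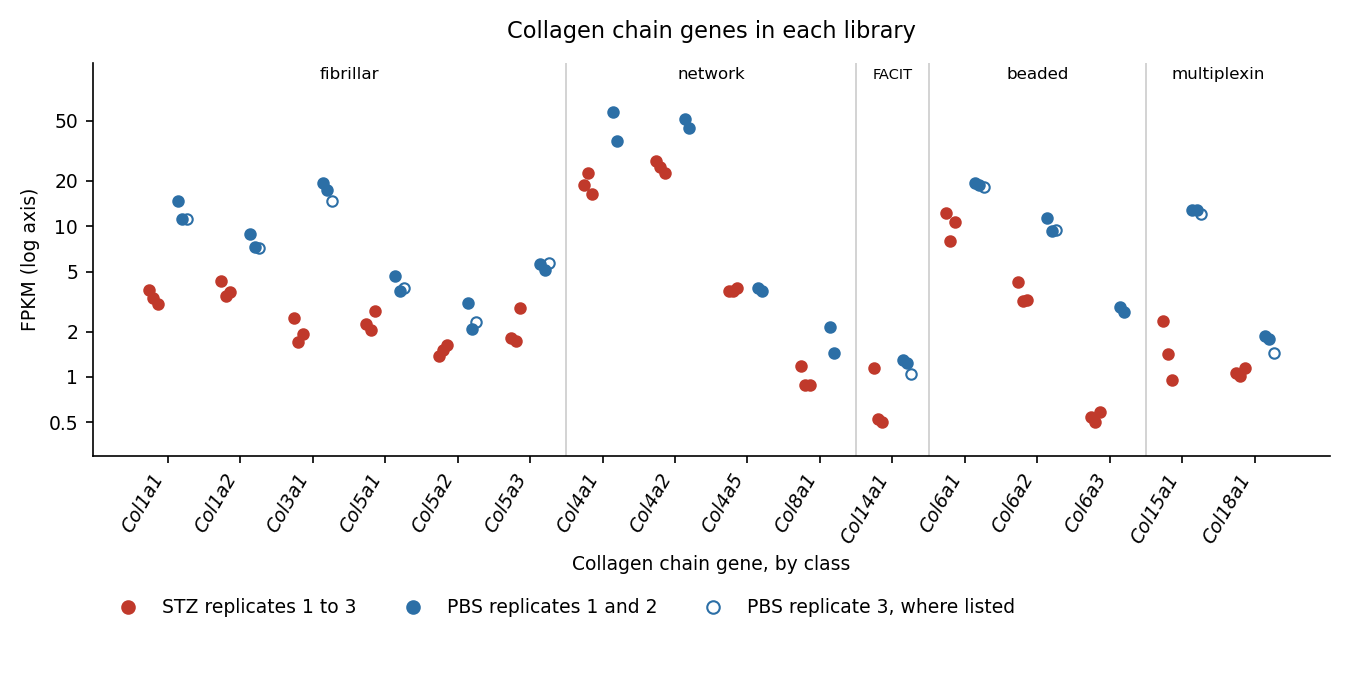
FPKM on a log axis of the 16 tested collagen chain genes, by class, with 1 point per library: STZ at the left of each gene and PBS at the right, open circles for PBS replicate 3 where its file lists the gene. Col3a1 and Col15a1 show the widest separation of the groups, and the points of Col4a5 coincide.

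Col3a1 encodes the chain of collagen III, the homotrimer of thin, extensible fibrils. It stood at 2.46, 1.70 and 1.94 FPKM in STZ replicates 1 to 3, against 19.40, 17.25 and 14.71 FPKM in PBS replicates 1 to 3. The lowest PBS library was thus far above the highest STZ library. On the means of the fitted libraries the level was 9.01-fold lower in STZ hearts (2.03 ± 0.389 FPKM, SD, n = 3) than in PBS hearts (18.3 ± 1.52 FPKM, SD, n = 2), and the log2(FPKM + 1) difference was -2.68 ± 0.15 (SE, limma adjusted p = 0.00175). It passed with every library left out in turn. Col3a1 lies on chromosome 1, 45311538 to 45349706, on the plus strand of GRCm38.

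Both chains of collagen I, the main load-bearing collagen of the heart, fell. Col1a1 (chromosome 11, 94936224 to 94953042) had 3.79, 3.32 and 3.03 FPKM in the STZ libraries, against 14.74, 11.21 and 11.19 FPKM in PBS replicates 1 to 3. Its partner Col1a2 (chromosome 6, 4504814 to 4541544) had 4.31, 3.42 and 3.65 FPKM in the STZ libraries, against 8.88, 7.30 and 7.16 FPKM in PBS replicates 1 to 3. The groups did not overlap for either chain. The log2 difference was -1.67 ± 0.16 for Col1a1 (SE, limma adjusted p = 0.00806) and -0.92 ± 0.14 for Col1a2 (SE, limma adjusted p = 0.0259).

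Collagen V is a minor fibrillar collagen that nucleates fibrils and limits their width. Its chain Col5a3 (chromosome 9, 20770050 to 20815067) fell to 1.82, 1.73 and 2.87 FPKM in STZ hearts, against 5.63, 5.13 and 5.68 FPKM in PBS replicates 1 to 3 (log2 difference -1.04 ± 0.18, SE, limma adjusted p = 0.0324). Col5a1 had 2.24, 2.06 and 2.72 FPKM in the STZ libraries and 4.64, 3.74 and 3.86 FPKM in the PBS libraries. It did not pass with the 5 complete libraries (limma adjusted p = 0.0621) and passed when PBS replicate 3 was added (limma adjusted p = 0.0275). Col5a2, which lies tail to tail with Col3a1 on chromosome 1 at a distance of 24614 bases, had 1.38, 1.5 and 1.64 FPKM in STZ hearts and 3.08, 2.08 and 2.32 FPKM in PBS hearts, and did not pass (log2 difference -0.50, 95% confidence interval -0.89 to -0.11, limma adjusted p = 0.116). Col5a2 also missed the threshold with PBS replicate 3 added (limma adjusted p = 0.067). It passed in the fit limited to the genes that all 6 files list. With the 5 complete libraries, the neighbours Col3a1 and Col5a2 showed differences of -2.68 and -0.50 on the log2 scale.

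The promoter windows of Col3a1, the chain with the largest fall, and of Col1a2, a chain of collagen I with a smaller one, are shown to set them side by side. RefSeq windows of 250 bases before to 50 bases after the transcription start (GRCm38.p6) were matched by symbol for 35 of the 44 chains. Capitals mark matches on either strand to any of 3 motifs. The first is CCAAT, which reads ATTGG on the opposite strand. The second is the GC box GGGCGG, which reads CCGCCC there. The last is TATAAA, which reads TTTATA there. In the windows printed here no match overlaps another.
Col3a1 (chr1:45311288-45311587, plus strand): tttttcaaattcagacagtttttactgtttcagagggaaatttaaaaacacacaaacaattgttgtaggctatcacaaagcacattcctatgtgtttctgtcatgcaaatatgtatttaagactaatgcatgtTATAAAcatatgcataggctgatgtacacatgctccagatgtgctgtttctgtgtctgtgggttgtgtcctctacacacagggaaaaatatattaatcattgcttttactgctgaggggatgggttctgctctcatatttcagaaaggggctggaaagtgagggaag
Col1a2 (chr6:4505368-4505667, plus strand): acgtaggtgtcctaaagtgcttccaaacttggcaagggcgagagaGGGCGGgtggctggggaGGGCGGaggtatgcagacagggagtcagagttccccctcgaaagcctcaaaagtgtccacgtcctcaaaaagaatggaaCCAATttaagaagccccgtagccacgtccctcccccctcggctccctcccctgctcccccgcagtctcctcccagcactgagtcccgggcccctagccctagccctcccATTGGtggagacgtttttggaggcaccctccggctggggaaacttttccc
The window of Col3a1 is AT-rich (37.7% G and C) and holds a single TATAAA. That of Col1a2 has 61.0% G and C, with 2 CCAAT and 2 GC box matches. The RefSeq start of Col1a2 lies 804 bases from the start of the GENCODE gene, so the window may not be the promoter of every transcript counted.

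The basement membrane chains Col4a1 and Col4a2 were the most abundant collagen transcripts in every complete library, and both fell. Col4a1 (chromosome 8, 11198423 to 11312826, minus strand) had 18.65, 22.42 and 16.21 FPKM in the STZ libraries, against 56.62 and 36.65 FPKM in PBS replicates 1 and 2. Col4a2 (chromosome 8, 11312805 to 11449287, plus strand) had 27.06, 24.61 and 22.33 FPKM in the STZ libraries, against 51.17 and 44.47 FPKM in PBS replicates 1 and 2. The groups did not overlap for either gene, although the PBS libraries of Col4a1 lay far from each other. The log2 differences were -1.22 ± 0.22 for Col4a1 (SE, limma adjusted p = 0.0366) and -0.93 ± 0.14 for Col4a2 (SE, limma adjusted p = 0.0243). The file of PBS replicate 3 does not list them.

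Collagen IV genes lie in 3 head-to-head pairs. In the annotation the starts of Col4a1 and Col4a2 are 21 bases apart and the genes overlap by 22 bases. Col4a5, a chain of collagen IV with a narrower distribution, is paired head to head with Col4a6 on the X chromosome, with starts 1309 bases apart. It stood at 3.70, 3.74 and 3.90 FPKM in the STZ libraries and at 3.91 and 3.74 FPKM in PBS replicates 1 and 2, so the groups overlapped. The log2 difference of Col4a5 was -0.01 ± 0.11 (SE, 95% confidence interval -0.28 to 0.26, limma adjusted p = 0.95). Col4a6 was at 0.05 to 0.26 FPKM in all complete libraries. The pair of Col4a3 and Col4a4, with starts 72 bases apart, was not tested: Col4a4 had 0.49, 0.33 and 0.67 FPKM in STZ hearts and 0.58 and 0.70 FPKM in PBS hearts, and Col4a3 had 0.17 to 0.22 FPKM in STZ hearts and 0.20 and 0.27 FPKM in PBS hearts.

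The promoter windows of the pair that fell and of Col4a5 are given to set them side by side, with the same motifs in capitals.
Col4a1 (chr8:11312777-11313076, minus strand): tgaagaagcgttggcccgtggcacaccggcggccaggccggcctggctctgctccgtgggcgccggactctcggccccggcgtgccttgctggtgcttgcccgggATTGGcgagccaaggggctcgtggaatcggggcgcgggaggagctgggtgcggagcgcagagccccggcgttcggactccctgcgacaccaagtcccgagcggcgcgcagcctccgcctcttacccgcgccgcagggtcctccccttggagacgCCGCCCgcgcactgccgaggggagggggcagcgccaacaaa
Col4a2 (chr8:11312555-11312854, plus strand): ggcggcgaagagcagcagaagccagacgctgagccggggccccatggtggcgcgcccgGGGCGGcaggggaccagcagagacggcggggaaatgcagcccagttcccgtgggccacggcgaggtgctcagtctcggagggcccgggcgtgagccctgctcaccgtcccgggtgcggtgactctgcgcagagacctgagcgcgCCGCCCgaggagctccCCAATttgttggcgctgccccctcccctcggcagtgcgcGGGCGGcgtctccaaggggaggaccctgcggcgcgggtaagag
Col4a5 (chrX:141475169-141475468, plus strand): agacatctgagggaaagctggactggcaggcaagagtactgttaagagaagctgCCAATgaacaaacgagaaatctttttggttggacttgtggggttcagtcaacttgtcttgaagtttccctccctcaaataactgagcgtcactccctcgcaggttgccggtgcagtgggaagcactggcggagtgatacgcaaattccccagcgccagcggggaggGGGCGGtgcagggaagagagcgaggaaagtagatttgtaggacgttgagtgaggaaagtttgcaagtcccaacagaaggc
The windows of Col4a1 and Col4a2 overlap, contain 74.0% and 73.7% G and C and hold 1 and 3 GC box matches, with 1 CCAAT each. The window of Col4a5 has 52.7% G and C and also holds 1 CCAAT and 1 GC box. Among the tested chains with a window, CCAAT was found in 4 of 8 that fell and 2 of 5 that did not pass, the GC box in 5 of 8 and 4 of 5, and TATAAA in 1 of 8 and 0 of 5. Over all 32851 windows of the table the shares were 37.4% for CCAAT, 35.7% for the GC box and 13.6% for TATAAA. A match describes the letters of the window and is not a binding site.

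The other tested network collagen was Col8a1, a short-chain collagen of vessel walls. It had 1.19, 0.89 and 0.88 FPKM in the STZ libraries and 2.15 and 1.44 FPKM in the PBS libraries (log2 difference -0.48 ± 0.17, SE, limma adjusted p = 0.134). The groups did not overlap, but the gene did not pass.

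All 3 common chains of collagen VI were lower in STZ hearts, and Col6a2 and Col6a3 passed. Col6a3 (chromosome 1, 90765923 to 90843971), the largest of these 3 chains, fell to 0.54, 0.50 and 0.59 FPKM in STZ hearts, against 2.89 and 2.69 FPKM in PBS replicates 1 and 2 (log2 difference -1.30 ± 0.13, SE, limma adjusted p = 0.00820). Col6a2 (chromosome 10, 76595762 to 76623630) fell to 4.27, 3.18 and 3.24 FPKM in STZ hearts, against 11.28, 9.28 and 9.46 FPKM in PBS replicates 1 to 3 (log2 difference -1.31 ± 0.16, SE, limma adjusted p = 0.0148). Its neighbour Col6a1, 85161 bases away in the same direction, had 12.29, 7.91 and 10.68 FPKM in the STZ libraries and 19.36, 18.73 and 18.27 FPKM in the PBS libraries. The groups did not overlap for any of these chains. Col6a1 missed the threshold with the 5 complete libraries (limma adjusted p = 0.0546) and passed with PBS replicate 3 added (limma adjusted p = 0.0219).

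Of the multiplexins, Col15a1 fell and Col18a1 did not pass. Col15a1 (chromosome 4, 47208161 to 47313167), a proteoglycan collagen of the outer basement membrane of muscle and capillaries, fell to 2.36, 1.42 and 0.96 FPKM in STZ hearts, against 12.79, 12.87 and 12.05 FPKM in PBS replicates 1 to 3. The PBS libraries were close together, and the STZ libraries ranged more widely below them. The log2 difference was -2.46 ± 0.23 (SE, limma adjusted p = 0.00806). Col18a1, whose C-terminal fragment is endostatin, had 1.07, 1.01 and 1.14 FPKM in the STZ libraries and 1.87, 1.78 and 1.44 FPKM in the PBS libraries (log2 difference -0.45 ± 0.13, SE, limma adjusted p = 0.0887). It also missed the threshold with PBS replicate 3 added (limma adjusted p = 0.0778) and passed in the fit limited to the genes that all 6 files list. The promoter window of Col15a1 is shown because the gene had the largest fall after Col3a1. It contains 0 of the searched motifs, and its start lies 149 bases from that of the GENCODE gene.
Col15a1 (chr4:47207762-47208061, plus strand): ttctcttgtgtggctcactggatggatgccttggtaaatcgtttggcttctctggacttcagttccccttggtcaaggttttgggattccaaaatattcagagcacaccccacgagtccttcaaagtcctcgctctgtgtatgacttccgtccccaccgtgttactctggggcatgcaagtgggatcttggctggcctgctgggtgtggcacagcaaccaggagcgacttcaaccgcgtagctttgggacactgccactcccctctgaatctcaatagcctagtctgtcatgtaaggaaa

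**Figure D2:**
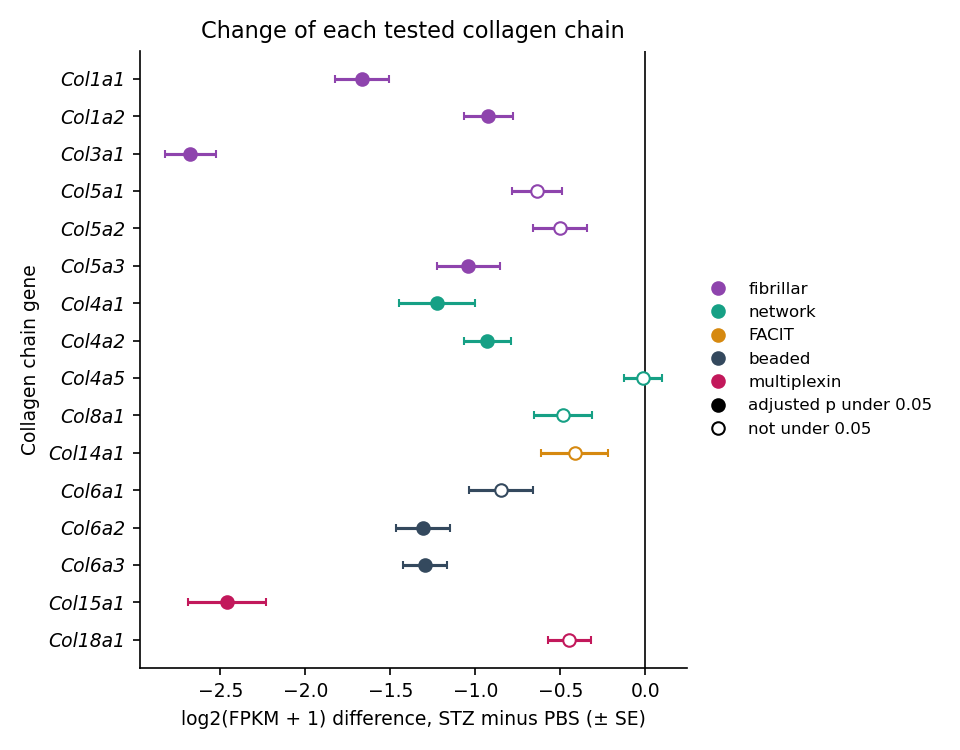
Difference in log2(FPKM + 1), STZ minus PBS, of each tested collagen chain with its standard error, coloured by class and filled where the limma adjusted p is under 0.05. The values run from -2.68 for Col3a1 to -0.01 for Col4a5.

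The FACIT class was scarce. Col14a1, which coats fibrils, was its tested member, with 1.14, 0.53 and 0.50 FPKM in the STZ libraries and 1.29, 1.24 and 1.04 FPKM in PBS replicates 1 to 3. The groups overlapped once PBS replicate 3 was counted, and the gene did not pass (log2 difference -0.41 ± 0.20, SE, limma adjusted p = 0.237). Col16a1 had 0.56, 0.62 and 0.86 FPKM in STZ hearts and 0.95 and 1.01 FPKM in PBS hearts and missed the filter. Col12a1, a FACIT collagen of stressed tissue, was at 0.02 to 0.07 FPKM in every complete library, and Col20a1 at 0.04 to 0.39 FPKM.

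The other 28 chains were not tested, and 27 of them were under 1 FPKM in every library. The highest was Col16a1, at 1.01 FPKM in 1 library. In 13 chains no library reached 0.1 FPKM, and Col24a1, Col9a1 and Col6a4 were listed at 0 throughout. Col6a6, a chain that can take the place of Col6a3, had 0.73, 0.47 and 0.73 FPKM in STZ hearts and 0.76 and 0.98 FPKM in PBS hearts. Col28a1, which is known from peripheral nerve, had 0.20, 0.23 and 0.80 FPKM in STZ hearts and 0.03 and 0.20 FPKM in PBS hearts, and STZ replicate 3 was above all others. The transmembrane collagens Col13a1 and Col23a1 had 0.17 to 0.43 and 0.35 to 0.65 FPKM in STZ hearts and 0.15 to 0.29 and 0.20 to 0.53 FPKM in PBS hearts. At these levels the values rest on few fragments and no difference is read from them. The cartilage collagens Col2a1 and Col10a1 did not exceed 0.08 FPKM.

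Added over the 44 chains, collagen FPKM was 2.38-fold lower in STZ hearts. The sum was 92.5, 83.8 and 81.7 FPKM in STZ replicates 1 to 3, against 224.5 and 184.5 FPKM in PBS replicates 1 and 2, so the groups did not overlap. The difference of the log2 sums was -1.24, and 3 against 2 libraries cannot give an exact two-sided permutation p below 0.2, the value obtained. Over the 23 chains that all 6 files list, the sum was 37.7, 28.6 and 33.3 FPKM in STZ libraries and 103.8, 91.5 and 88.2 FPKM in PBS libraries (exact permutation p = 0.1, the smallest that 3 against 3 allows). In bulk tissue, fewer cells of a type and less RNA per cell cannot be told apart.

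The make-up of the collagen pool is given as shares, whose differences this design cannot bring below a p of 0.2. Fibrillar chains made up 18.4% ± 1.57 of collagen FPKM in STZ hearts (SD, n = 3) and 25.5% ± 0.208 in PBS hearts (SD, n = 2), a difference of -7.06 percentage points (exact permutation p = 0.2). Multiplexins made up 3.06% ± 0.585 in STZ hearts and 7.24% ± 0.998 in PBS hearts. Network chains made up 57.5% ± 4.34 in STZ hearts and 49.3% ± 2.69 in PBS hearts, and beaded chains 17.4% ± 2.65 and 16.2% ± 1.35. Shares sum to a whole, so a higher share of network chains says only that they were reduced less: their summed FPKM averaged 49.4 in STZ hearts and 101.2 in PBS hearts, against 15.8 and 52.1 for the fibrillar class.

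**Figure D3:**
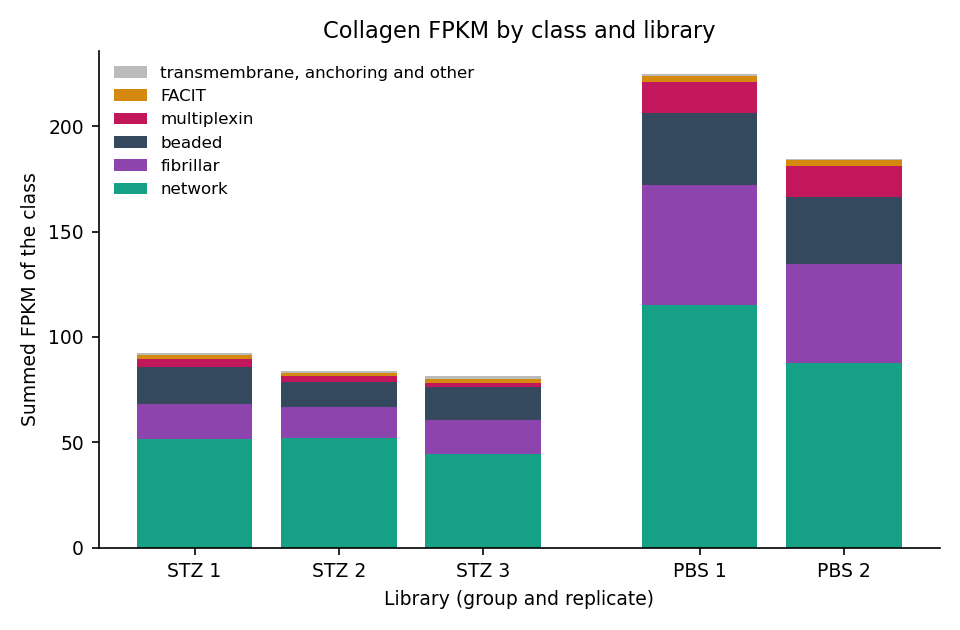
Summed FPKM of the collagen classes in each complete library, STZ replicates 1 to 3 at the left and PBS replicates 1 and 2 at the right. The stacks reach 81.7 to 92.5 FPKM in STZ libraries and 184.5 and 224.5 FPKM in PBS libraries, and network chains are the largest block in each.

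Ratios between chains separated the libraries of the groups for 6 of 8 pairs, but none passed after adjustment over the 8. The ratios were chosen after the values had been seen, so their separation partly restates the unlike differences of the single chains. How often ratios of other gene pairs separate the groups was not computed. Among single tested genes, 18.8% had every STZ library below both PBS libraries and 28.7% had every one above. Collagen I needs more alpha 1 than alpha 2 chains, and the ratio of Col1a1 to Col1a2 was 0.879, 0.971 and 0.830 in STZ replicates 1 to 3, against 1.66, 1.54 and 1.56 in PBS replicates 1 to 3. The groups did not overlap (exact permutation p = 0.1, the smallest possible, adjusted p = 0.2 over the 8 ratios). Col3a1 to Col1a1 was 0.649, 0.512 and 0.640 in the STZ libraries and 1.32, 1.54 and 1.31 in the PBS libraries, again without overlap (exact permutation p = 0.1, adjusted p = 0.2). Col15a1 to Col18a1 averaged 1.48 ± 0.685 in STZ hearts and 7.48 ± 0.794 in PBS hearts (SD, n = 3 each, exact permutation p = 0.1, adjusted p = 0.2).

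In collagen VI, Col6a1 to Col6a2 was higher in STZ hearts (2.89 ± 0.405) than in PBS hearts (1.89 ± 0.155, SD, n = 3 each, exact permutation p = 0.1, adjusted p = 0.2). Col6a3 to Col6a1 was 0.0541 ± 0.0097 in STZ hearts (SD, n = 3) and 0.146 ± 0.00400 in PBS hearts (SD, n = 2, exact permutation p = 0.2, adjusted p = 0.267). Col4a5 to Col4a2 was 0.154 ± 0.0191 in STZ hearts (SD, n = 3) and 0.0803 ± 0.00544 in PBS hearts (SD, n = 2, exact permutation p = 0.2, adjusted p = 0.267). The pairs Col4a1 to Col4a2 (0.775 ± 0.119 in STZ hearts and 0.965 ± 0.2 in PBS hearts) and Col5a1 to Col5a2 (1.55 ± 0.155 and 1.66 ± 0.146) overlapped between groups (exact permutation p = 0.4 for each). The design could not bring any of these ratios below 0.1.

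**Figure D4:**
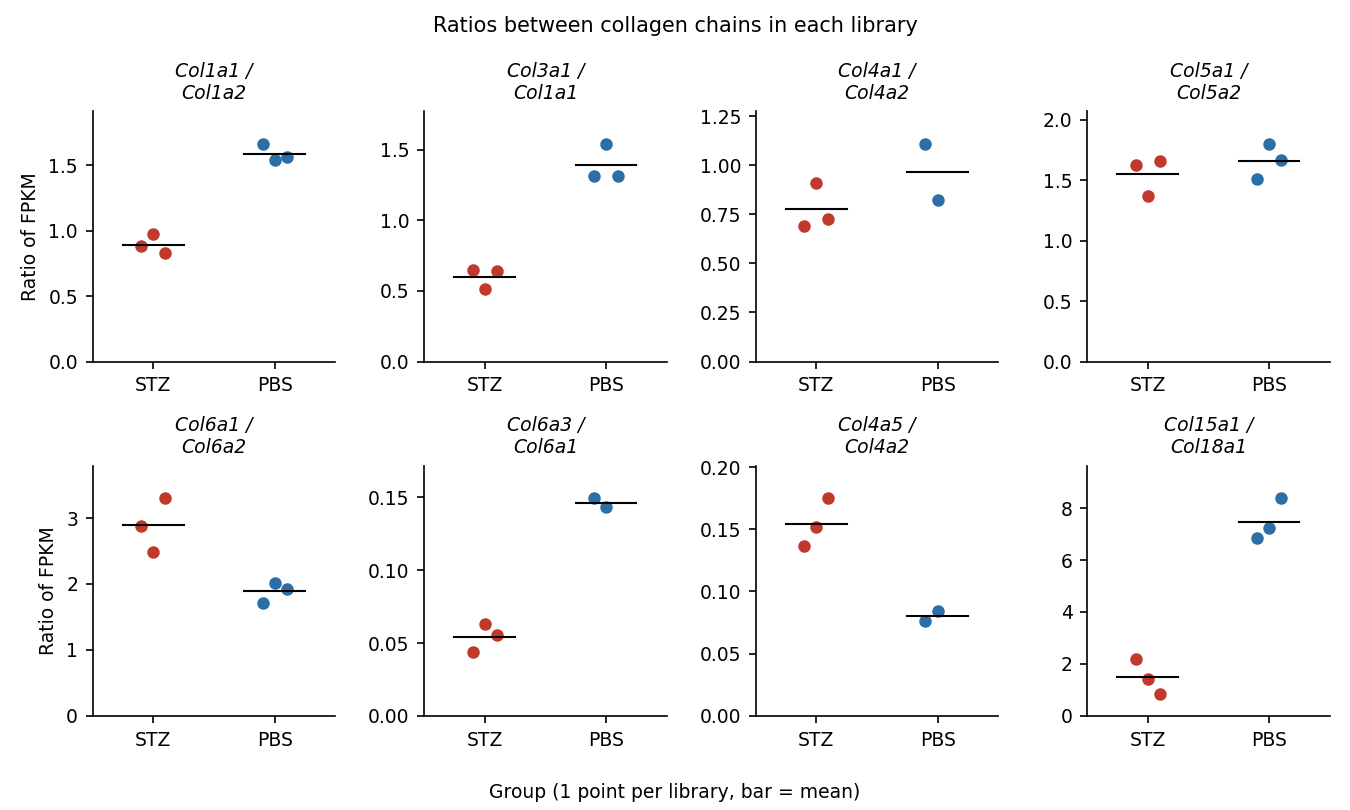
Ratio of FPKM between pairs of collagen chains, with 1 point per library and a bar at the mean, STZ at the left and PBS at the right of each panel, on axes that start at 0. The groups are apart for 6 pairs and overlap for Col4a1 to Col4a2 and Col5a1 to Col5a2.

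Genes that modify and fold collagen chains moved in both directions. Of 17 tested members 3 fell and 2 rose. Their median log2 fold change was -0.12, against 0.06 over all genes tested. The collagen-specific chaperone Serpinh1 (HSP47) had 18.32, 47.13 and 25.72 FPKM in STZ hearts, against 93.45 and 94.58 FPKM in PBS replicates 1 and 2 (limma adjusted p = 0.0491). The prolyl hydroxylase subunit P4ha1 (log2 difference -1.21) and the lysyl hydroxylase Plod1 (-0.74) also fell. Fkbp10, a chaperone needed for collagen cross-links, rose to 16.63, 17.27 and 12.38 FPKM, against 5.53, 5.36 and 5.69 FPKM in PBS replicates 1 to 3 (limma adjusted p = 0.0156), and P3h4, a partner of lysyl hydroxylation, rose by 1.10 on the log2 scale. These 5 genes were named because they passed. In the same libraries their groups did not overlap, which adds no separate support.

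Among 5 tested cross-linking enzymes, Lox rose to 3.03, 2.86 and 2.97 FPKM in STZ hearts, against 0.82, 0.77 and 0.73 FPKM in PBS replicates 1 to 3 (limma adjusted p = 0.00955). It met the filter through its STZ values alone. Its relative Loxl2 fell by 0.84 on the log2 scale, and the list's median was 0.06. Of 11 proteoglycans and glycoproteins that bind fibrils, Thbs2 rose (log2 difference 1.71) and the collagen-binding protein Sparc fell (-0.69), with a median of -0.33. The list of collagen breakdown holds both proteases and their inhibitors, with 8 tested genes. Of these, the protease inhibitor Timp3 rose to 58.23, 44.90 and 51.00 FPKM, against 17.32, 17.37 and 23.45 FPKM in PBS replicates 1 to 3. At an unadjusted limma p under 0.05, 0 were lower and 3 higher, against 10.2% and 16.4% of all tested genes. The list's median was 0.26, which mixes opposite functions and does not describe breakdown itself.

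None of 11 basement membrane partners of collagen IV (laminins, nidogens, perlecan, agrin and peroxidasin) passed in limma, where 3 were lower at an unadjusted p under 0.05, and their median was -0.15. Those 3 were Pxdn (log2 difference -0.46), Lama4 (-0.37) and Hspg2 (-0.30). Of the 11 partners, 7 had a negative sign and 4 a positive one. Over all tested genes 10.2% were lower and 16.4% higher at that level. Lamc1, the common laminin gamma chain and not among the 3, had 14.6 FPKM in STZ hearts and 16.2 FPKM in PBS hearts on average. Likewise none of 8 genes of collagen secretion (2 lower at an unadjusted limma p under 0.05), 5 of procollagen processing (2 lower and 1 higher), 5 collagen receptors (0) and 17 regulators of collagen genes (4 higher) passed. The medians of these lists were -0.13, -0.14, -0.23 and 0.17. Ccn2, a TGF-beta target, averaged 59.2 FPKM in STZ hearts and 24.2 FPKM in PBS hearts and did not pass (limma adjusted p = 0.0866).

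Markers of the collagen-making cells did not all follow the chains. Of 9 fibroblast markers Pi16 and Cd248 fell and none rose, with a median of -0.23. At an unadjusted limma p under 0.05, 3 were lower and 2 higher, against 10.2% and 16.4% of all tested genes. The matrix protein gene Dpt had 29.69, 27.91 and 28.79 FPKM in the STZ libraries and 49.44, 40.19 and 35.88 FPKM in PBS replicates 1 to 3, without overlap, and did not pass (limma adjusted p = 0.0538). Lum and Ddr2 had negative log2 differences of -0.26 and -0.23 and did not pass. The fibroblast receptor Pdgfra had 4.04, 4.45 and 3.41 FPKM in the STZ libraries and 2.78, 2.88 and 3.64 FPKM in PBS replicates 1 to 3. The fibroblast factor Tcf21 had 2.48, 3.27 and 3.26 FPKM in the STZ libraries and 2.41 and 2.28 FPKM in PBS replicates 1 and 2, and the proteoglycan Dcn averaged 71.7 FPKM in STZ hearts and 55.0 FPKM in PBS hearts. Pdgfra, Tcf21 and Dcn had positive log2 differences and did not pass. The whole list summed to 432 to 482 FPKM in STZ libraries and 436 to 469 FPKM in PBS libraries, most of it from Gsn, which averaged 324 FPKM in STZ hearts and 318 FPKM in PBS hearts.

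Of 4 tested markers of activated fibroblasts, the 3 genes Postn, Meox1 and Acta2 fell, with a median of -1.02 for the list. The other tested marker, Comp, had 1.51, 0.59 and 0.51 FPKM in the STZ libraries. In PBS replicates 1 and 2 Comp had 1.32 and 1.04 FPKM, so the groups overlapped, and it did not pass (log2 difference -0.26, limma adjusted p = 0.546). Acta2 is shared with smooth muscle. The list of activated fibroblast markers summed to 25.9 to 27.3 FPKM in STZ libraries and 53.4 to 71.5 FPKM in PBS libraries. Cthrc1 and Tnc were too low to test. Cthrc1 was at 0 in 3 of the 5 complete libraries, and Tnc was at 0.05 to 0.11 FPKM. The part of these markers in the collagen values was not tested. None of 6 endothelial markers and 5 markers of pericytes and smooth muscle passed in limma, with medians of 0.26 and 0.09. At an unadjusted limma p under 0.05, 3 and 1 of them were higher, against 16.4% of all tested genes. The sums of these lists were 126 to 152 and 134 to 177 FPKM in STZ libraries. In PBS libraries they were 121 to 121 and 142 to 143 FPKM. None of 4 macrophage and 5 cardiomyocyte markers passed in limma. At an unadjusted limma p under 0.05, 2 and 3 of them were lower, against 10.2% of all tested genes. The medians were -0.29 and -0.36, on the same side of 0 as that of the collagen chains. Both lists held positive and negative differences. The part of these markers in the collagen values was not tested. The cardiomyocyte genes that were lower at that level were Myh6 (-0.36), Ttn (-0.55) and Ryr2 (-1.24). Tnnt2 (0.36) and Actn2 (0.18) had positive differences. Of the macrophage markers Adgre1 (-0.69) and Csf1r (-0.37) were lower at that level, Mrc1 was at -0.20 and Cd68 was positive (0.15). Macrophage markers summed to 14.3 to 19.6 FPKM in STZ libraries and 19.3 to 21.2 FPKM in PBS libraries. Epicardial and mesothelial, adipocyte and chondrocyte-like markers summed to at most 2.75, 1.59 and 1.70 FPKM in STZ libraries and 1.35, 4.09 and 1.86 FPKM in PBS libraries, with the cartilage genes Matn1 and Matn3 at 0.

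The 15 matrix and marker genes named from these lists that passed kept their sign in each alternative in which they were tested. With either PBS replicate 1 or 2 left out Thbs2 alone passed, while 8, 11 and 8 of the 15 did so when STZ replicates 1, 2 and 3 were dropped in turn. After rescaling to TPM 11 of the 15 passed, and Serpinh1, P4ha1, Plod1 and Sparc did not. Serpinh1 and P4ha1 also missed the threshold at pseudocounts of 0.1 and 0.5, and without a filter on low values Meox1, Thbs2 and Timp3 were the 3 that passed.

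**Figure D5:**
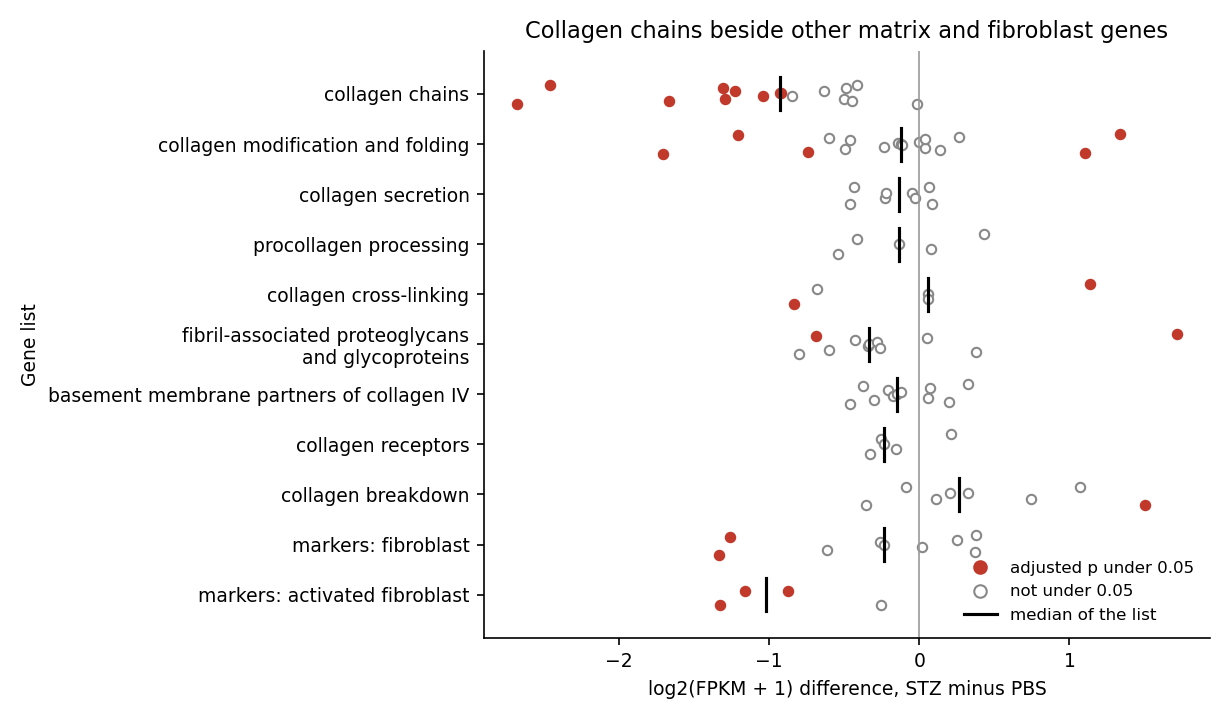
Difference in log2(FPKM + 1), STZ minus PBS, of the tested genes of each list, with red points where the limma adjusted p is under 0.05 and a bar at the list's median. The median of the collagen chains lies at -0.93, those of the other matrix lists between -0.33 and 0.26, and that of the 4 markers of activated fibroblasts at -1.02.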

How the data were processed

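Tools named in the submitters' processing notes are StringTie 1.3.4d, HISAT2 2.0.4 and cutadapt 1.9, and the build is GRCm38. The deposited values are FPKM per gene to 2 decimals, per the file headers. The libraries keep strand (U-labelled second strand, per the labels' protocols), but neither the strand setting of the counting nor the annotation release is known here, so reads of overlapping genes could be shared. Of the collagen chains, Col9a3 overlaps opposite-strand exons most (6.07% of its exon length). Because FPKM are shares of a library's total, a large change in a few abundant genes moves all others.

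Libraries listing under 50% of the genes were left out of the fit, which removed PBS replicate 3. The 11556 genes at or above 1 FPKM in 2 or more of 5 libraries were tested on log2(FPKM + 1) with limma 3.58.1 (eBayes with trend) in R 4.3.3, two-sided. P-values were adjusted by Benjamini-Hochberg across these genes, with a threshold of 0.05. This scale understates changes of low genes. Symbols came from GENCODE release M21 (55141 of 55401 identifiers matched). Single values per library were tested by exact permutation with scipy 1.17.1. The members and lists were chosen with earlier results of these data known. Every chain is accounted for. Those that passed or averaged at least 5 FPKM in a group are given by library, and of other lists up to 4 genes that passed are named, with Serpinh1, P4ha1, Plod1, Fkbp10 and P3h4 all given since they were 5. Other list members were named after their values were seen. The result of 1 marker list is not reported here. On simulated data over 11556 genes the fit recovered 48% of 100 genes changed by 1 and 87% of 100 changed by 2 on the log2 scale, and 2.17% of its calls were false. The changed genes were drawn from those with a mean log2(FPKM + 1) above 2, and noise was independent between genes and libraries. These rates therefore do not cover lower genes or differences that many genes of a library share. Alternatives covered pseudocount, filter, scaling, variance model, replicate block, libraries, and length and GC content (mgcv 1.9.3).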

Additional observations from a re-analysis of the deposited data

How the results depend on the processing

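All 10 chains that passed or averaged at least 5 FPKM kept a negative sign in every alternative that tested them. The count of 9 chains (672 of 11556 genes in all) held or moved to 10 or 11 in 12 alternatives. These were pseudocounts 0.1 and 0.5, the 5 FPKM filter, TPM, centring, quantile normalization, rescaling, and robust and untrended eBayes. The others were PBS replicate 3 added (1169 genes), the genes of all 6 files, and length and GC content. The fit over the genes of all 6 files is a different set: 987 of 4824 genes and 10 of 11 tested chains passed. Of these 10 chains 6 were among the 9, and the others were Col5a1, Col5a2, Col6a1 and Col18a1. Col4a1, Col4a2 and Col6a3 were not tested there. At the 5 FPKM filter Col6a1 passed and Col6a3 was not tested. Without a filter on low values 4 chains and 81 genes passed. With 1 library left out, 1 to 7 chains and 24 to 398 genes passed, and without replicate 1 of both groups, chosen after seeing the data, 3 chains and 110 genes. With 1 PBS library left, that library is assumed to vary like the STZ group. Fewer libraries enter these fits; other causes were not tested. The replicate numbers were not taken to pair the libraries, since the labels do not say so and 1 of 3 same-number correlations of deviations over 4824 genes was negative (0.176, -0.049 and 0.151). Those of replicates 1 and 3 exceeded every correlation between different numbers (at most 0.093), and the atrial marker Myl7 was similar in same-numbered libraries. With the replicate block 3 chains (Col1a1, Col3a1 and Col15a1), 64 genes and, of the 15 list genes, Fkbp10 and Thbs2 passed. Col1a2, Col5a3, Col4a1, Col4a2, Col6a2 and Col6a3 did not. In that fit STZ replicate 3 has no PBS partner, so the difference rests on replicates 1 and 2 of each group. The collagen sum differed by -1.39 to -1.10 and the fibrillar share by -7.96 to -6.51 points with 1 library left out, and by -1.51 and -5.40 over the chains of all 6 files. The depth could only be estimated roughly, so no counting interval is given.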

Other observations

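Genes that carry a collagen-like domain but fall outside the naming rule were looked at as well, in a list of 23 genes drawn up after the data were seen. Of 14 tested, Colq fell and none rose. At an unadjusted limma p under 0.05, 3 were lower and 3 higher, against 10.2% and 16.4% of all tested genes. The median of the 14 was -0.10 on the log2 scale. Colq, the collagen tail that anchors acetylcholinesterase at synapses, had 1.23, 1.95 and 1.75 FPKM in STZ hearts, against 3.69 and 4.29 FPKM in PBS replicates 1 and 2 (limma adjusted p = 0.0324). The complement genes C1qa, C1qb and C1qc, whose products form a collagen-like stalk, averaged 41.0, 29.1 and 19.5 FPKM in STZ hearts and 43.4, 32.1 and 20.9 FPKM in PBS hearts and did not pass. The soluble lectin Colec11 averaged 12.2 FPKM in STZ hearts and 6.69 FPKM in PBS hearts (limma adjusted p = 0.0806).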
